A study of Mus musculus with 8 samples.

Results

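Gtf2i, its relatives Gtf2ird1 and Gtf2ird2, and 7 genes near them on mouse chromosome 5 were followed across 8 single-colour microarrays. The 7 neighbours were Ncf1, Clip2, Limk1, Eln, Lat2, Eif4h and Baz1b. The genes were taken by name, as the TFII-I family and part of the Williams region. No measured value entered that rule, but earlier results of these data were known when it was set. All 10 were found, through 17 probes, among 45616 genes and unnamed transcripts on the array. RNA came from TEC71, an immortalized epithelial line from the medulla of the mouse thymus. Control cells had received a Cas9 nickase with a single guide RNA (3 arrays), and the knock-in cells carried the change labelled T1211A in Gtf2i, as clone 1 (3 arrays) and clone 3 (2 arrays). Each knock-in group was a single clone. Whether the control was a clone, whether replicates were separate cultures, and whether T1211A counts bases or residues are not given in the sources used here. P-values therefore measure only the spread between these arrays.

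TFII-I, the product of Gtf2i, is a transcription factor that binds initiator and E-box elements of promoters and also acts in the cytoplasm, where kinases such as SRC and BTK phosphorylate it. GTF2IRD1 and GTF2IRD2 share its repeated DNA-binding domains, and GTF2IRD2 carries in addition a stretch derived from a transposon. In humans most genes of this region are lost from 1 chromosome in Williams syndrome, and mutations of GTF2I are known from thymic epithelial tumours.

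The 250 bases before the start of each of the 3 family members differ in the short motifs they hold. The sequences are from RefSeq on GRCm38.p6, written 5′ to 3′ on the strand of the gene. They are shown because, in the main fit below, Gtf2i was lower and Gtf2ird2 higher in both clones, while Gtf2ird1 did not pass. Any part of the motifs in these differences was not tested. Capitals mark GGATTA (reverse strand TAATCC), the element that GTF2IRD1 is known to bind, CACGTG, an E-box read alike on both strands, GGGCGG (reverse strand CCGCCC), the core of the GC box, and TATAAA (reverse strand TTTATA), the TATA box. Positions are given as the number of bases from the first letter of a match to the start of the gene.
Gtf2i, chr5:134314761-134315010, minus strand: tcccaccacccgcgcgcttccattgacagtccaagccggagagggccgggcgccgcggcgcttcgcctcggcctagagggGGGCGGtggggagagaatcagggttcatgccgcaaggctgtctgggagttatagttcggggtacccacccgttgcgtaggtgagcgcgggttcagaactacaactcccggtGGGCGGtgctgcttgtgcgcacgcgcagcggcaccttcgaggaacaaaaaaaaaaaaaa
Gtf2ird1, chr5:134456717-134456966, minus strand: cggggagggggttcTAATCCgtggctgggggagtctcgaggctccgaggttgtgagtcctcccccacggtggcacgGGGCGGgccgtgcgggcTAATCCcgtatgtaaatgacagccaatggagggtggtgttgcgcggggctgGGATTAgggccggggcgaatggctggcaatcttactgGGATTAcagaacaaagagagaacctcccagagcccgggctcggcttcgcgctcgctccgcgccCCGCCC
Gtf2ird2, chr5:134183788-134184037, plus strand: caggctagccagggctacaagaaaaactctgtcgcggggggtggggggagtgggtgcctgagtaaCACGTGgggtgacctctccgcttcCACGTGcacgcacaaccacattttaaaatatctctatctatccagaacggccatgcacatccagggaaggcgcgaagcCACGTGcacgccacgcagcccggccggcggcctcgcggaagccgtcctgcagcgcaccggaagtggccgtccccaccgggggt

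The Gtf2i window held 2 copies of GGGCGG, at 170 and 59 bases, and none of the other motifs. Gtf2ird1 held 4 copies of GGATTA, at 236, 157, 106 and 69 bases, and 2 of GGGCGG. Gtf2ird2 held 3 copies of CACGTG, at 185, 161 and 83 bases. At least 1 GGATTA was present in 6.25% of 32851 promoter windows of this length and 4 or more in 2 windows (0.00609%). At least 1 CACGTG was present in 6.02% and 3 or more in 20 windows (0.0609%), at least 1 GGGCGG in 32.7% and 2 or more in 16.7%, and at least 1 TATAAA in 12.4%. The cutoffs of 4, 3 and 2 copies were taken from these genes, whose own windows are among those counted, so the shares are a description. These are matches of letters, described after the array results were known, and they are not measured binding sites. The windows of Gtf2i, Gtf2ird1 and Gtf2ird2 were rich in CpG, with 25, 22 and 22 CpG against a median of 6.0 over all windows, and with a GC content of 63.2%, 66% and 64% against a median of 52.4%. The table had an entry for 8 of the 10 genes, all but Eln and Lat2. Ncf1, between Gtf2ird2 and Gtf2i on the chromosome, had 2 CpG and a GC content of 54.4%.

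Each array held 56605 distinct probes, of which 55.3% to 59.3% were well above background. Saturated spots were not present, and precision is limited by how many arrays a group has. Correlations between arrays ran from 0.993 to 0.995 within a group, from 0.989 to 0.994 across the clones and from 0.964 to 0.97 between control and clone. The sample titles end in numbers that were read here as row and column on 1 slide, which the titles do not spell out. By this reading the controls and clone 1 replicate 1 lay in row 1 and the remaining arrays in row 2, so row and group largely coincide. All uses of the slide row below rest on it. Clone 1 replicate 1 had a brightest spike-in signal of 2797, against 17164 to 30390 on the other arrays. The epithelial origin was borne out by its markers, since 6 of 6 epithelial markers were well above background on all 8 arrays. Of 8 medullary markers 5 were so, with Aire above background on 3 arrays and Ccl21a and Fezf2 on none. Some of these markers moved with the groups. Krt5 (-1.32 log2 in clone 1, -1.13 in clone 3), Epcam (-1.10 and -1.01), Cd80 (-2.31 and -2.86) and Relb (-0.84 and -1.03) fell in both clones. The medullary marker Cldn4 rose in both (1.52 and 1.17), and the other tested epithelial and medullary markers passed in neither. The summed signal of the 6 epithelial markers was 361 to 475 times the 75th percentile in the controls, 313 to 360 in clone 1 and 335 to 373 in clone 3, and that of the 8 medullary markers was 36.1 to 41.9, 38.8 to 42.3 and 34.8 to 40.1. Their part in the results below was not tested.

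Levels are log2 of the processed signal minus the array's 75th percentile, so that 0 is a probe at that percentile. A difference of 1 is a doubling. Each gene is represented by its brightest probe, and levels of different genes are not compared because they come from different probes. In limma's test of all 8 arrays, 3 of the 9 genes that could be tested passed an adjusted p of 0.05 in clone 1, Gtf2ird2 higher and Gtf2i and Lat2 lower, where 31.1% of all 25353 genes and transcripts tested passed (14.7% higher, 16.5% lower). The same 3 of 9 passed with the same signs in clone 3, where 30.2% of all passed (13.3% higher, 17.0% lower). The share of members called was thus near the background in both clones, and 23.5% of all tested passed in both clones with 1 sign. Both comparisons use the same 3 controls. The median difference over the 9 genes was -0.12 log2 for clone 1 and -0.14 for clone 3, beside -0.05 and -0.04 log2 over all tested. Of the 9, 8 were well above background on all 8 arrays. Lat2 entered the test only because the 3 controls were above background, so the filter itself selected for a lower level in the clones, and Ncf1 was not tested. Among the 8 genes above background on all arrays 2 passed in each clone, Gtf2i and Gtf2ird2, where 32.6% of all such genes and transcripts passed in clone 1 and 31.4% in clone 3.

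**Figure D1:**
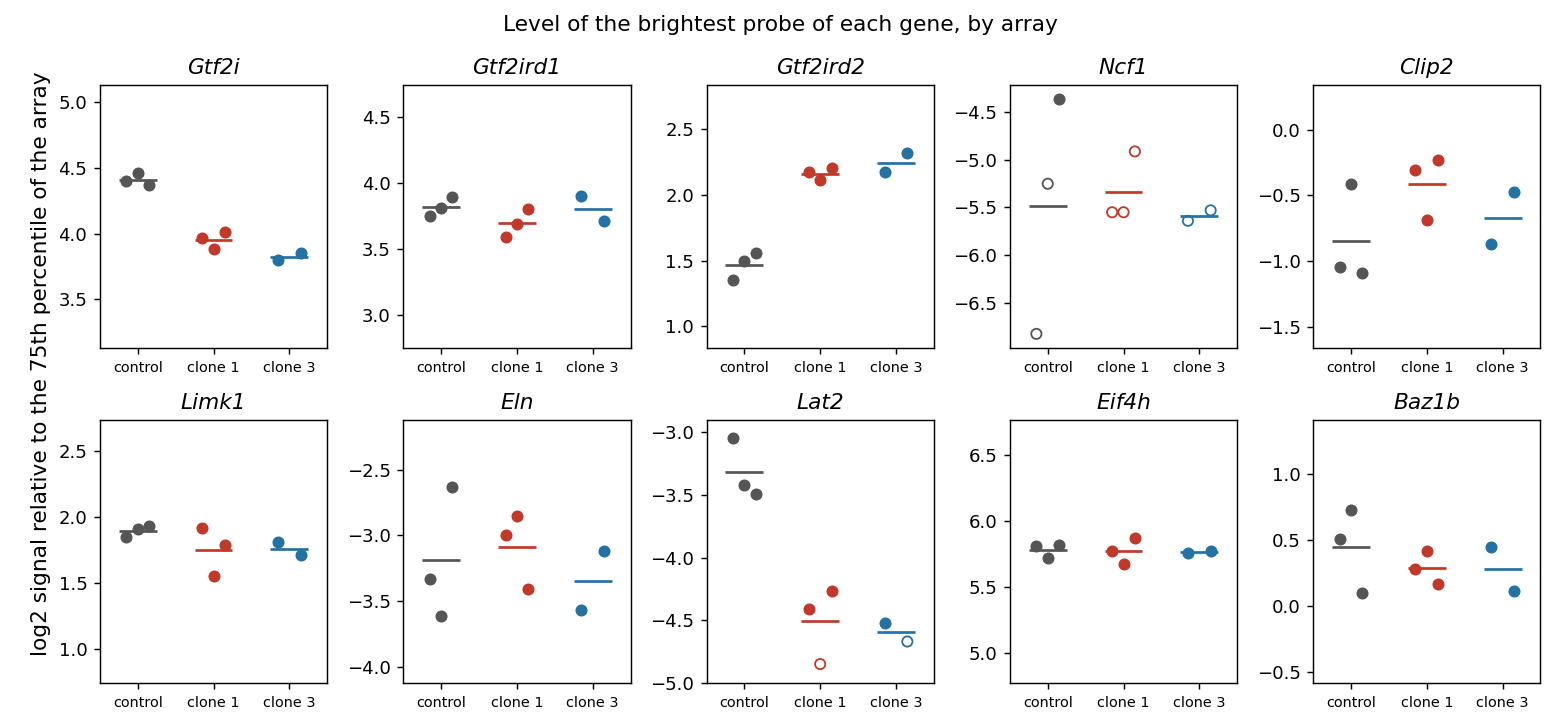
Each panel shows 1 gene, with the level of its brightest probe (log2 signal minus the array's 75th percentile) on the vertical axis and the 3 groups on the horizontal axis. Points are arrays, open where the probe was not well above background, and bars are group means. All panels span at least 2 log2 but sit at different heights. The knock-in arrays lie below every control for Gtf2i and Lat2 and above every control for Gtf2ird2. For the other genes at least 1 clone array lies within the range of the controls.

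Gtf2i, the edited gene, had a level of 4.40, 4.46 and 4.37 on the control arrays, 3.97, 3.88 and 4.01 on those of clone 1, and 3.80 and 3.85 on those of clone 3. The 3 groups did not overlap, and the order was control, clone 1, clone 3. In clone 1 Gtf2i was 1.37-fold lower (-0.46 log2, SE 0.10, 95% interval -0.68 to -0.24, limma adjusted p = 0.00754). In clone 3 it was 1.5-fold lower (-0.59 log2, SE 0.11, interval -0.83 to -0.34, adjusted p = 0.00421). The difference between the clones was -0.13 log2 (interval -0.38 to 0.11, adjusted p = 0.679). In size, the change exceeded that of 68.7% of all tested genes and transcripts in clone 1 and of 74.1% in clone 3. Probe signals do not detect a point mutation, and these values therefore do not check the edit. In RNA of a whole culture, fewer cells with a transcript and less of it per cell cannot be told apart.

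Gtf2i had 3 probes, which gave the same sign but not the same call. The second probe stood at 0.33, 0.44 and 0.38 in the controls, -0.03, -0.02 and -0.14 in clone 1, and -0.01 and -0.14 in clone 3. Every clone array was below every control on it, with a difference of -0.45 log2 for clone 1 (SE 0.10, limma adjusted p over all probes 0.0091) and -0.46 log2 for clone 3 (SE 0.11, adjusted p = 0.0143). The third and dimmest probe read -3.18, -3.38 and -3.20 in the controls, -3.44, -3.53 and -3.54 in clone 1, and -3.38 and -3.97 in clone 3. On this probe the controls and clone 3 met at -3.38, and its differences of -0.25 log2 (adjusted p = 0.262) and -0.42 log2 (adjusted p = 0.0977) did not pass. Over the 12 member probes that could be tested, 4 passed in each clone, where 32.6% of all probes passed in clone 1 and 31.2% in clone 3.

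With the slide row as a block in the fit, the Gtf2i difference was -0.44 log2 in clone 1 (limma adjusted p = 0.0789) and -0.56 log2 in clone 3 (adjusted p = 0.125), so both calls ended while the size stayed close. Within row 1, where clone 1 is present on 1 array, it was -0.44 log2. For clone 1 the block and row 1 alone give the same estimate, because row 1 holds no other clone array. Here and below, block values against the control lean on clone 1 replicate 1 in both clones. It is the array with the low spike-in signal.

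**Figure D2:**
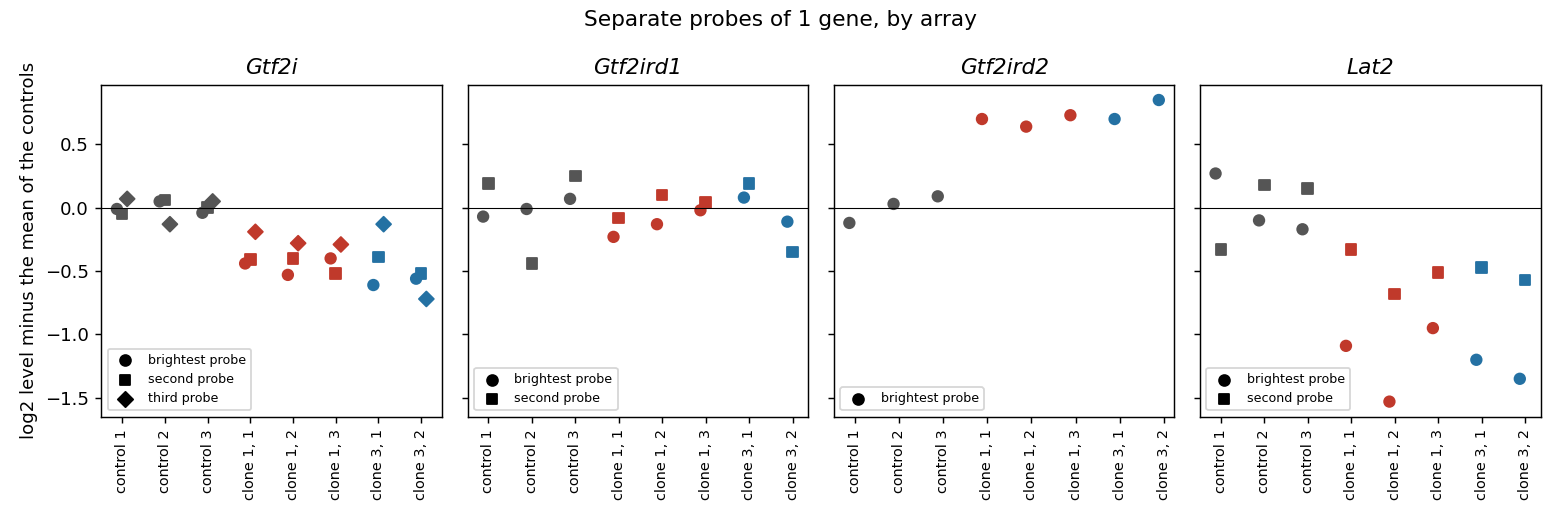
The vertical axis gives the log2 level of each probe minus the mean of the 3 controls on that probe, and the horizontal axis the 8 arrays, for Gtf2i, Gtf2ird1, Gtf2ird2 and Lat2. Circles are the brightest, squares the second and diamonds the third probe of a gene. The first and second Gtf2i probes lie at -0.39 or lower on all 5 clone arrays, and the Lat2 probes differ in how far below the controls they lie.

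Gtf2ird1 encodes a DNA-binding relative of TFII-I and lies next to Gtf2i. Its level was 3.75, 3.81 and 3.89 in the controls, 3.59, 3.69 and 3.80 in clone 1, and 3.90 and 3.71 in clone 3. The groups overlapped. The difference was -0.12 log2 in clone 1 (interval -0.37 to 0.13, limma adjusted p = 0.457) and -0.01 log2 in clone 3 (interval -0.29 to 0.27, adjusted p = 0.964). A second Gtf2ird1 probe averaged 2.32 ± 0.38 in the controls (SD, n = 3), 2.34 ± 0.10 in clone 1 (n = 3) and 2.24 ± 0.38 in clone 3 (n = 2), and it did not pass either.

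Gtf2ird2 moved the other way from Gtf2i. Its single probe read 1.35, 1.5 and 1.56 in the controls, 2.17, 2.11 and 2.20 in clone 1, and 2.17 and 2.32 in clone 3. All 5 clone arrays lay above all 3 controls, and the clones overlapped. In clone 1 Gtf2ird2 was 1.61-fold higher (0.69 log2, SE 0.10, interval 0.45 to 0.93, limma adjusted p = 0.00148). In clone 3 it was 1.71-fold higher (0.77 log2, SE 0.12, interval 0.50 to 1.04, adjusted p = 0.00169). When the slide row was a block the rise was 0.69 log2 in clone 1 (adjusted p = 0.0238) and 0.78 log2 in clone 3 (adjusted p = 0.0655). Within row 1 the rise was again 0.69 log2, the same estimate from clone 1 replicate 1. Without the block the family thus held 1 lower gene, 1 higher gene and 1 that did not pass, in each clone. Over all tested, 14.7% passed as higher and 16.5% as lower in clone 1, and 13.3% and 17.0% in clone 3. With the block, of the family only Gtf2ird2 in clone 1 passed, beside 17.2% of all tested in clone 1 and 8.16% in clone 3.

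Lat2 encodes a transmembrane adaptor of immune cells that SYK phosphorylates and that binds GRB2. It was dim, with processed signals of 32.3, 35.2 and 25.5 in the controls, 15, 9.72 and 18.9 in clone 1, and 14 and 11.1 in clone 3. As log2 levels these were -3.05, -3.42 and -3.49, then -4.41, -4.85 and -4.27, then -4.52 and -4.67. Every clone array was below every control, but clone 1 replicate 2 and clone 3 replicate 2 were not well above background. The fitted difference was -1.19 log2 for clone 1 (SE 0.18, limma adjusted p = 0.00138) and -1.28 log2 for clone 3 (SE 0.20, adjusted p = 0.00199). Because these values include arrays at background and the filter kept Lat2 through its controls, they describe a lower signal on these arrays and do not settle its size. With the row as a block the difference was -1.09 log2 in clone 1 (adjusted p = 0.0302) and -1.12 log2 in clone 3 (adjusted p = 0.102). Within row 1 the same estimate of -1.09 log2 came from clone 1 replicate 1.

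A second Lat2 probe read -4.49, -3.98 and -4.01 in the controls, -4.49, -4.84 and -4.67 in clone 1, and -4.63 and -4.73 in clone 3. It was above background on 5 of 8 arrays and was not tested, and control replicate 1 met clone 1 on it. With normexp background correction, whose offset of 50 exceeds every Lat2 signal, the Lat2 difference shrank to -0.32 log2 in each clone, smaller than that of Gtf2i (-0.42 and -0.47 log2) or Gtf2ird2 (0.59 and 0.67 log2) under the same correction, and the call in clone 3 ended (adjusted p = 0.0659). Leukocyte markers did not pass in either clone. Of 8 such markers 4 were above background on all 8 arrays, Cd8a, Itgax and Lyz2 on none and Ptprc on 1, and their summed signal relative to the 75th percentile ran from 7.21 to 10.8 in the controls, 7.49 to 11 in clone 1 and 9.93 to 10.2 in clone 3.

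Ncf1 encodes the organizer subunit of the phagocyte NADPH oxidase and lies between Gtf2ird2 and Gtf2i. Its brightest probe was above background on 1 of 8 arrays, control replicate 3, at -4.36. The other arrays read -6.83 and -5.25 in the controls, -5.55, -5.55 and -4.91 in clone 1, and -5.64 and -5.53 in clone 3. The remaining 2 Ncf1 probes were above background on no array, so no fold change is given.

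Clip2, which encodes a linker protein of microtubule plus ends, read -1.04, -0.41 and -1.09 in the controls, -0.31, -0.69 and -0.23 in clone 1, and -0.87 and -0.47 in clone 3. Control replicate 2 lay among the clone arrays. The difference was 0.44 log2 in clone 1 (interval -0.05 to 0.93, limma adjusted p = 0.165) and 0.17 log2 in clone 3 (interval -0.38 to 0.72, adjusted p = 0.635). Without control replicate 2 the clone 1 difference was 0.66 log2 and passed (adjusted p = 0.0386).

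Limk1 encodes a kinase that phosphorylates cofilin and so slows the turnover of actin filaments. It read 1.85, 1.91 and 1.93 in the controls, 1.92, 1.55 and 1.79 in clone 1, and 1.81 and 1.71 in clone 3. Both clone 3 arrays lay below the controls, and clone 1 overlapped them. The difference was -0.14 log2 in each clone (limma adjusted p = 0.42 in clone 1 and 0.484 in clone 3), with intervals of -0.42 to 0.13 and -0.44 to 0.17.

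Eln encodes tropoelastin, the core protein of elastic fibres. It read -3.33, -3.61 and -2.63 in the controls, -3.00, -2.85 and -3.41 in clone 1, and -3.57 and -3.12 in clone 3. The controls alone spanned the range of both clones. The differences were 0.10 log2 (interval -0.50 to 0.71, limma adjusted p = 0.814) and -0.16 log2 (interval -0.84 to 0.52, adjusted p = 0.73), so the data leave wide bounds, and a second Eln probe was above background on no array.

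Eif4h stimulates the RNA helicase of translation initiation, and its arrays lay close together. The level was 5.81, 5.72 and 5.82 in the controls, 5.77, 5.67 and 5.87 in clone 1, and 5.76 and 5.77 in clone 3. The difference was -0.02 log2 in each clone (intervals -0.24 to 0.21 and -0.28 to 0.23, limma adjusted p = 0.932 and 0.907). Baz1b, the partner of the SNF2H remodeller in the WICH complex, read 0.51, 0.73 and 0.10 in the controls, 0.28, 0.42 and 0.17 in clone 1, and 0.45 and 0.11 in clone 3. The groups overlapped, with differences of -0.16 log2 (interval -0.56 to 0.25, adjusted p = 0.559) and -0.17 log2 (interval -0.62 to 0.28, adjusted p = 0.571).

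**Figure D3:**
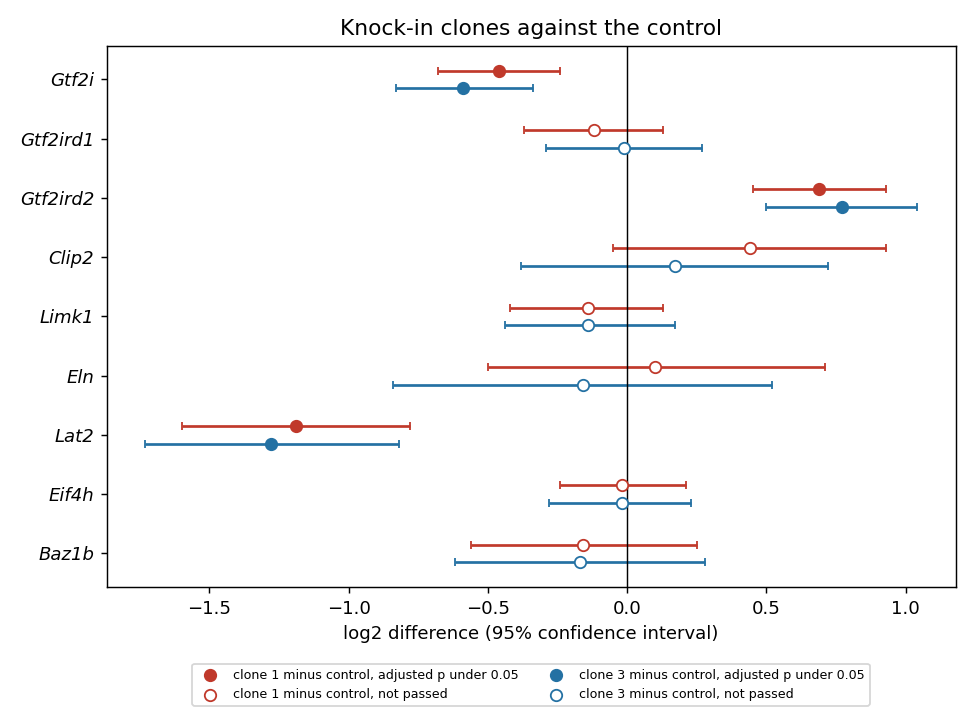
The horizontal axis gives the log2 difference of each knock-in clone from the control with its 95% confidence interval, for the 9 tested genes on the vertical axis. Filled points passed an adjusted p of 0.05. Gtf2i and Lat2 lie left of 0 and Gtf2ird2 right of it in both clones, and all other intervals include 0.

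Arrays without overlap between groups were counted as well. The clone 1 and control arrays did not overlap for 3 of the 9 genes, where 46.5% of all tested did not, and those of clone 3 and control for 4 of 9, where 55.7% did not. Limk1 was the fourth. Compared directly, clone 3 and clone 1 differed in 0 of the 9 genes by limma's adjusted p and in 0 at an unadjusted p under 0.05, with a smallest unadjusted p of 0.253 for Gtf2i. Over all genes and transcripts 19 of 25353 (0.0749%) passed. Gtf2i was the 1 gene of the 9 whose 2 clones did not overlap, where 28.5% of all tested did not.

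The genes were then read in their order on the chromosome, from RefSeq. From Gtf2ird2 the order is Ncf1, Gtf2i, Gtf2ird1 and Clip2, then after 2 other genes Lat2, Eif4h, Limk1 and Eln, and after 13 more Baz1b. The 3 called genes were therefore not adjacent. Gtf2ird2, higher, and Gtf2i, lower, flank Ncf1, which was at background. Gtf2ird1 and Clip2, between Gtf2i and Lat2, did not pass. Of 25 protein-coding genes from Gtf2ird2 to Baz1b, 22 were tested, of which 3 passed as higher and 5 as lower for clone 1 (14.7% and 16.5% over all tested), and 3 each way for clone 3 (13.3% and 17.0%). Their median difference was -0.06 log2 for clone 1 and -0.03 for clone 3, close to the -0.05 and -0.04 log2 over all tested.

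**Figure D4:**
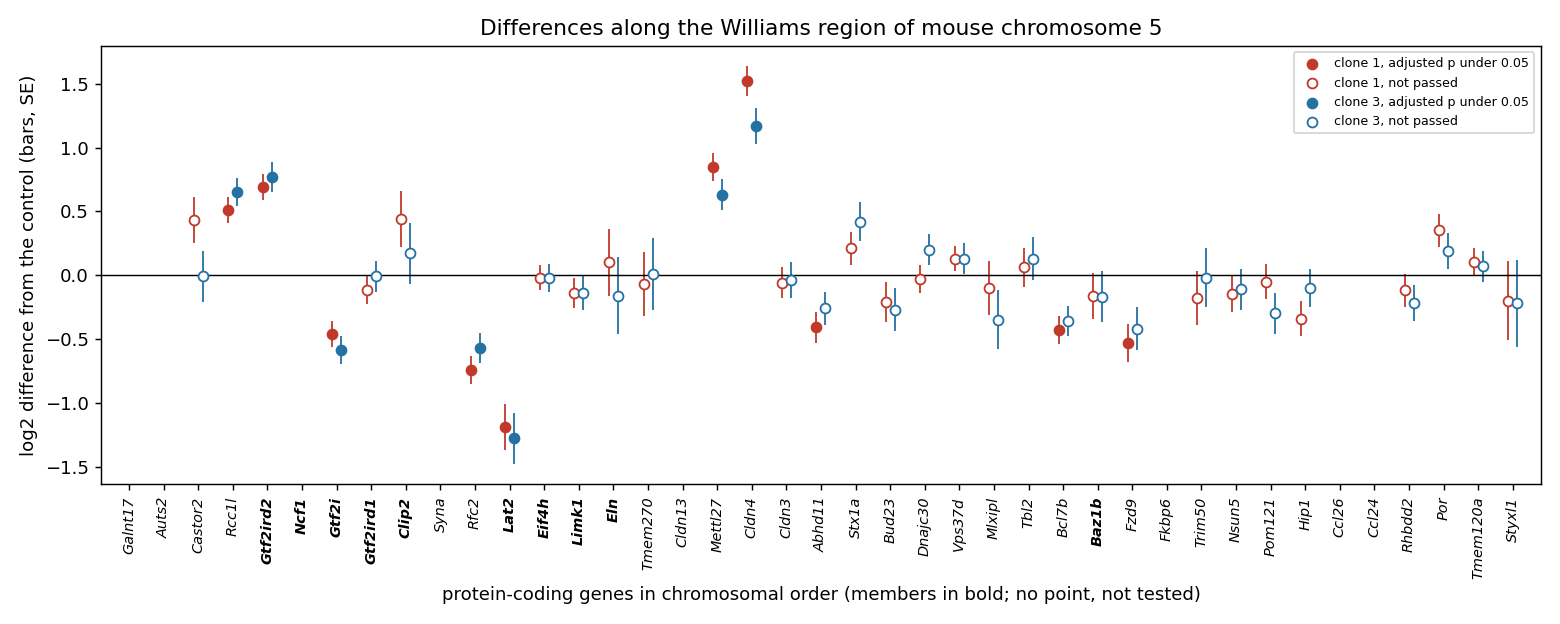
The vertical axis gives the log2 difference from the control, with SE bars, for clone 1 and clone 3, and the horizontal axis the protein-coding genes of the region in chromosomal order, evenly spaced, with the 10 members in bold. Filled points passed an adjusted p of 0.05 and genes without a point were not tested. Filled points lie on both sides of 0 along the region, with Cldn4 at 1.52 and 1.17 log2 and Lat2 at -1.19 and -1.28 log2 farthest from 0.

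Among other genes of the region some passed and most did not. Rcc1l, the gene on the other side of Gtf2ird2, was chosen after its values were seen, and its differences were 0.51 log2 for clone 1 (limma adjusted p = 0.00406) and 0.65 log2 for clone 3 (adjusted p = 0.00244), beside 0.69 and 0.77 log2 for Gtf2ird2. Among 18 tested other genes of the Williams region, 2 rose and 1 fell in both clones, where 23.5% of all tested passed in both. Cldn4, a tight-junction claudin and also 1 of the medullary markers above, rose by 1.52 and 1.17 log2, and Mettl27, a putative methyltransferase gene, by 0.85 and 0.63 log2. Rfc2, a subunit of the clamp loader of DNA replication that lies just before Lat2, fell by 0.74 and 0.57 log2. The list's median was -0.08 log2 for clone 1 and -0.07 for clone 3. With the row as a block Cldn4 and Mettl27 passed in both clones, Rfc2 passed in clone 1 (adjusted p = 0.0281) but not in clone 3 (0.264), and Rcc1l in neither (0.0559 and 0.0978).

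Of 14 listed flanking genes 10 were tested, and 3 rose in both clones while 0 fell, beside 23.5% of all tested that passed in both. They were Hspb1, a small heat shock protein gene (0.82 and 0.94 log2), Sbds, which acts in ribosome maturation (0.67 and 0.85 log2), and Ywhag, a 14-3-3 protein gene (0.43 and 0.43 log2). Over the flanking list the median was 0.08 log2 for clone 1 and 0.13 for clone 3. None of the 3 calls held with the row as a block (Hspb1 adjusted p = 0.0553 and 0.199, Sbds 0.0686 and 0.125, Ywhag 0.189 and 0.383).

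Partners and targets of TFII-I were read next. Of 18 tested partners, 1 rose and 0 fell in both clones (23.5% of all tested passed in both). It was Src, a kinase that phosphorylates TFII-I (0.98 log2 for clone 1, SE 0.12, limma adjusted p = 0.00044, and 1.12 log2 for clone 3, SE 0.13, adjusted p = 0.000459). Its call held in both clones when the row was a block (0.013 and 0.0459 as adjusted p). Usf1, whose product binds CACGTG together with TFII-I, did not pass (0.41 log2, adjusted p = 0.147, and 0.26 log2, adjusted p = 0.398), and Btk was above background on 1 array. With the block Ctcf, an insulator protein gene, passed as lower in clone 1 (-0.60 log2, adjusted p = 0.036), which it did not without it (-0.38 log2, adjusted p = 0.0507). Of 8 listed targets of the family 5 were tested. Fos, an immediate early gene whose promoter TFII-I binds, was higher (2.07 log2 for clone 1, SE 0.22, adjusted p = 0.000197, and 1.51 log2 for clone 3, SE 0.24, adjusted p = 0.00229), and the row block ended the clone 3 call (1.54 log2, adjusted p = 0.0772). Hspa5, the chaperone gene used to study TFII-I in stress, did not pass (0.30 and 0.15 log2), nor did Ccnd1 (-0.31 and -0.10 log2) or Ezh2 (-0.19 and -0.12 log2). Gsc, a classical target of GTF2IRD1, was above background on no array. The medians were 0.09 and 0.04 log2 for the partners and 0.03 and -0.10 log2 for the targets.

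Around Lat2, 3 of the 4 tested linker adaptor genes passed in both clones, where 23.5% of all tested did. Syk, the kinase that phosphorylates the adaptor, was lower, at -1.46 log2 for clone 1 (SE 0.11, limma adjusted p = 2.64e-05) and -1.48 log2 for clone 3 (SE 0.12, adjusted p = 5.95e-05). Gab2, a docking protein gene, was higher by 1.92 log2 (SE 0.10, adjusted p = 3.93e-06) and 1.64 log2 (SE 0.12, adjusted p = 2.49e-05), and Cbl, a ubiquitin ligase gene, by 0.39 and 0.51 log2. Syk and Gab2 passed with the row as a block in both clones, and Cbl in neither (adjusted p = 0.173 and 0.236). Grb2 did not pass (-0.12 and 0.14 log2), and Lat, the T-cell relative of Lat2, was above background on 1 array. The adaptor list had a median of 0.14 log2 for clone 1 and 0.33 for clone 3.

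Around Ncf1, none of the 6 tested NADPH oxidase genes passed in both clones by limma's adjusted p. Noxa1, an activator subunit, fell in clone 1 (-0.66 log2, adjusted p = 0.0101) and stood at -0.16 log2 in clone 3 (adjusted p = 0.507). The cytosolic partner Ncf4 was above background on no array and the catalytic subunit Cybb on 1, while the shared membrane subunit Cyba was above background on all 8 (0.17 and 0.27 log2, not passed). With the row as a block the Noxa1 call ended (-0.77 log2, adjusted p = 0.051). Rac2, a GTPase gene of the oxidase, then passed as lower in both clones (-1.36 log2, adjusted p = 0.00412, and -1.49 log2, adjusted p = 0.0158). These Rac2 values lean on clone 1 replicate 1, and the probe was above background on 6 of 8 arrays. Without the block Rac2 did not pass (-0.60 log2, adjusted p = 0.162, and -0.35 log2, adjusted p = 0.463), so a fall in both clones is not shown. Over the list the median was 0.05 and 0.15 log2.

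Around Limk1, 2 of 11 tested genes rose and 1 fell in both clones, beside 23.5% over all tested. Cfl2, a cofilin gene and so a substrate of LIM kinases, was higher, with 1.13 log2 for clone 1 (SE 0.10, limma adjusted p = 9.26e-05) and 0.84 log2 for clone 3 (SE 0.12, adjusted p = 0.0011), and its calls held when the row was a block (0.00266 and 0.0397 as adjusted p). The cofilin phosphatase gene Ssh1 rose (0.61 and 0.70 log2) and its relative Ssh2 fell (-0.78 and -0.53 log2). With the block Ssh1 passed in neither clone and Ssh2 in clone 1. Cfl1, also a cofilin gene, passed as higher in clone 1 (0.51 log2, limma adjusted p = 0.0352) but not in clone 3 (0.48 log2, adjusted p = 0.0642). Ssh3 likewise passed in clone 1 (0.60 log2, adjusted p = 0.0159) and not in clone 3 (0.26 log2, adjusted p = 0.283). With the block Ssh3 passed in clone 1, and Cfl1 passed in neither clone (0.20 and 0.03 log2). The kinases upstream, Rock1, Rock2, Pak1 and Pak2, and Limk2 did not pass. The 11 genes had a median of 0.07 and 0.14 log2.

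Around Clip2, 3 of 9 tested genes of microtubule plus ends fell and 1 rose in both clones, beside 23.5% over all tested. Mapre2, an end-binding protein gene, fell by 0.88 and 0.91 log2, Clip4 by 0.56 and 0.55 log2, and Clip3 by 1.13 and 0.41 log2, while Clasp1 rose by 0.51 and 0.47 log2. All 4 passed with the row as a block in clone 1 and none in clone 3. Clip1, a relative of Clip2, did not pass in clone 1 (0.28 log2, limma adjusted p = 0.0891) and passed in clone 3 (0.38 log2, adjusted p = 0.0495), where the row block ended the call (adjusted p = 0.432). A median of 0.05 and 0.17 log2 was found over the list.

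Around Eln, 2 of 8 tested elastic fibre genes fell and 0 rose in both clones, beside 23.5% over all tested. Mfap4, a microfibril-associated glycoprotein gene, fell by 0.54 and 0.63 log2, and Loxl1, an elastin cross-linking oxidase gene, by 0.44 log2 (SE 0.13, limma adjusted p = 0.0304) and 2.33 log2 (SE 0.14, adjusted p = 1.02e-05). Of 6 markers of fibroblasts, which make elastic fibre proteins, 2 were above background on all 8 arrays and Dcn, Pdgfrb and Thy1 on none. Their summed signal relative to the 75th percentile was 0.944 to 1.19 in the controls, 0.44 to 0.607 in clone 1 and 0.444 to 0.516 in clone 3, with Pdgfra lower in both clones (-1.30 and -1.83 log2) and the other tested marker, Col1a2, not passing (-0.13 and 0.14 log2). Their part in these differences was not tested. Lox, the related oxidase gene, did not pass in clone 1 (0.59 log2, adjusted p = 0.183) and rose in clone 3 (1.67 log2, adjusted p = 0.00671). Its probe was above background on 4 of 8 arrays, and the filter kept Lox through clone 3. The filter itself thus selected for a higher level there. With the row as a block Loxl1 passed as lower in both clones and Mfap4 in neither. Lox passed with the block as higher in both (1.28 log2, adjusted p = 0.0205, and 2.70 log2, adjusted p = 0.00556), values that lean on clone 1 replicate 1. Over the 8 genes the median was -0.09 and -0.02 log2.

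Around Eif4h and Baz1b, no listed gene passed in both clones by limma's adjusted p. Of 8 eIF4F genes, the scaffold gene Eif4g1 rose in clone 3 (0.53 log2, adjusted p = 0.0427) and came closest in clone 1 (0.44 log2, adjusted p = 0.0562), where none passed. The helicase gene Eif4a1, whose product Eif4h stimulates, stood at -0.05 and -0.09 log2. With the row as a block the Eif4g1 call ended (adjusted p = 0.216) and the helicase cofactor gene Eif4b passed as lower in clone 1 (-0.85 log2, adjusted p = 0.0241). Of 6 tested ISWI and related chromatin genes, Bptf fell in clone 1 (-0.35 log2, adjusted p = 0.0336) and Chd4 in clone 3 (-0.46 log2, adjusted p = 0.0378), while Smarca5, the WICH partner of Baz1b, did not pass (0.11 and 0.30 log2). Both calls ended with the row as a block (Bptf -0.39 log2, adjusted p = 0.129, and Chd4 -0.21 log2, adjusted p = 0.621), and Baz2a passed as higher in clone 1 (0.69 log2, adjusted p = 0.0485). The medians were 0.01 and -0.09 log2 for eIF4F and 0.13 and 0.17 log2 for the chromatin list.

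Genes with the pattern most like the 2 called family members were found by the root mean square difference of levels, each centred on its own mean over the 8 arrays, among 13566 genes above background on all arrays. For Gtf2i, which itself varied by 0.255 log2 about its mean, these were Pnisr (0.04 log2), Trim11 (0.044 log2) and Rgs10 (0.045 log2), whose differences from the control were -0.47, -0.40 and -0.50 log2 for clone 1 and -0.62, -0.56 and -0.61 log2 for clone 3. For Gtf2ird2, which varied by 0.358 log2, they were Antkmt (0.046 log2), Kbtbd7 (0.048 log2) and Cbr1 (0.051 log2), with 0.70, 0.67 and 0.74 log2 for clone 1 and 0.71, 0.77 and 0.73 log2 for clone 3. These genes were chosen for their likeness on the same arrays, so their differences are a description.

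**Figure D5:**
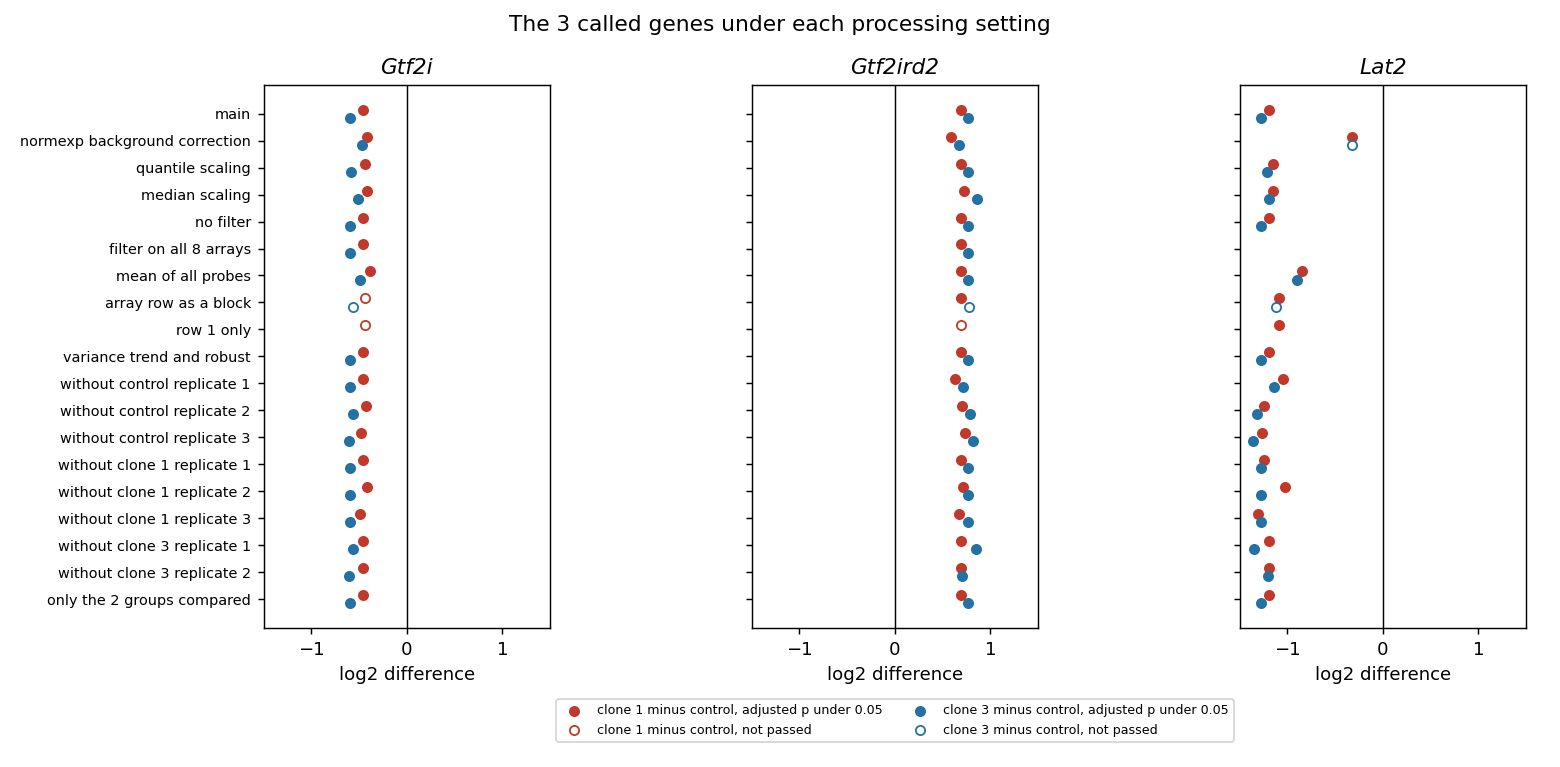
Each panel gives the log2 difference from the control on the horizontal axis for 1 of the 3 called genes, under each processing setting on the vertical axis, with filled points where the adjusted p was under 0.05. Row 1 holds no clone 3 array, and Lat2 has no value where all 8 arrays had to be above background. The sign was the same under every setting shown, and the slide row as a block left all 3 clone 3 points open.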

How the data were processed

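Total RNA (200 ng per sample) was labelled with Cy3 and hybridized to Agilent mouse arrays, per the labels' protocols. The authors deposited processed signals, which are intensity values on a linear scale after background correction, produced by Agilent Feature Extraction (version 11.5.11 in the submitters' processing notes, 11.5.1.1 per the file headers). The headers name build mm9, so no probe coordinates are given, and promoter coordinates are those of RefSeq on GRCm38.p6. RefSeq names, matched by accession, gave 32994 of 56605 probes a symbol.

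Control spots and flagged spots (114 to 242 per array) were left out. Log2 signals were averaged over the spots of a probe and reduced by the array's 75th percentile (268 to 377). The brightest probe stood for a gene, which was tested if all arrays of 1 or more groups had that probe well above background. The 3 groups were fitted together with limma 3.58.1 (R 4.3.3; lmFit, contrasts, eBayes), two-sided, with Benjamini-Hochberg adjustment over 25353 genes and transcripts and a threshold of 0.05 (residual df 5, prior df 3.38). The fit was tested on simulated data. Precision is limited by the number of arrays and, for dim probes, by signal over background.

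The genes and the lists of their pathways, markers and neighbours were chosen with earlier results of these data known. The text names all 10 genes, up to 6 genes per list that passed in both clones, and the 3 genes most like Gtf2i and Gtf2ird2 in pattern. Some listed genes are not reported here. Other listed genes, Rcc1l and the promoter motifs were chosen after their values were seen. Alternatives were normexp correction (offset 50, on the median spot signal), scaling by quantiles or the median, dropping the filter or requiring all 8 arrays, averaging a gene's probes, the slide row as a block, row 1 alone, a robust fit with a variance trend, the 2 compared groups alone and each array left out. A fit of row 2 alone was added after the data were seen.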

Additional observations from a re-analysis of the deposited data

How the results depend on the processing

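Among alternative values for single genes, 464 kept their side of the threshold, 7 lost a call, 1 gained one (Clip2 in clone 1 without control replicate 2) and 0 reversed a called difference. Most of the 464 belonged to differences that were not called in the main fit. The 7 losses fell on Gtf2i and Gtf2ird2 in both clones and on Lat2 in clone 3. With the array row as a block, 2 of 9 genes passed in clone 1 (Gtf2ird2 and Lat2) and 0 in clone 3, where Gtf2i, Gtf2ird2 and Lat2 stood at adjusted p = 0.125, 0.0655 and 0.102, and 2 probes passed in clone 1 and 0 in clone 3. With row 1 only, 1 gene (Lat2) and 1 probe passed in clone 1. Over all genes and transcripts the row block moved the calls from 7896 to 4349 in clone 1 (17.2%) and from 7669 to 2068 in clone 3 (8.16%), and row 1 alone gave 3119 (11.7%) in clone 1. Without a filter 5445 and 5103 of 45616 passed, with the same 3 members in each clone. Calls between the clones ran from 0 (row 2 alone) to 172 (without clone 3 replicate 1) of all tested. A group left with 1 array is assumed to vary like the others. Leaving out each array in turn gave 3 to 4 genes and 4 to 5 probes in clone 1, 3 to 3 genes and 3 to 5 probes in clone 3, and 0 to 0 genes between the clones. Row 2 alone, added after the data were seen, gave 0 genes between the clones. No paired analysis was possible because the labels give no replicate numbers that the groups share. With the row as a block the medians of the 11 pathway lists ran from -0.24 to 0.19 log2, and that of the 9 genes was -0.01 and -0.03 log2. The sign of the median turned for the TFII-I partners (-0.11 and -0.07 log2) and, in clone 1, for the TFII-I targets (-0.03 log2), the NADPH oxidase (-0.05 log2) and eIF4F (-0.03 log2). Lat2 could not be tested where all 8 arrays had to be above background. Lat2, Ncf1 and Eln lay near background, where the signal limits what can be read.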
